A study of Mus musculus with 4 samples.

Results

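The core genes of the Notch pathway were examined for N6-methyladenosine (m6A) in mouse c-Kit+ foetal liver cells. The 10 genes were the receptors Notch1, Notch2, Notch3 and Notch4, the ligands Jag1, Jag2, Dll1 and Dll4, and Rbpj and Hes1. Rbpj is the DNA-binding factor of the pathway and Hes1 a target gene. They hold core places in the pathway, but were chosen with earlier results of these data known. GENCODE M21 holds 21951 protein-coding genes with a coding transcript. A peak was given to a gene when its summit, the base with the highest signal, lay in one of the gene's annotated exons. By that rule 13 of the 15635 peaks of replicate 1 and 12 of the 14872 peaks of replicate 2 belonged to these genes.

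The data came from m6A meRIP-seq, in which RNA is fragmented, fragments that carry m6A are pulled down with an antibody (IP), and their reads are set against those of an unselected input. There were 4 samples, namely IP replicates 1 and 2 and input replicates 1 and 2, and the peaks called in each of the IP replicates were analysed here. The labels describe foetal liver cells of C57BL/6 mice enriched on magnetic beads for Kit, a receptor of blood stem and progenitor cells, and give total RNA for the IP samples and polyA RNA for the input samples. All cells were Ythdf2 CTL per the methods of the study, that is Ythdf2 fl/fl without Cre, an allele that makes a working GFP-YTHDF2 fusion protein. The embryonic stage and the number of embryos behind a library are not given in the sources used here. With 1 group of 2 IP libraries, no contrast between conditions was possible, and the results below describe which Notch genes carried peaks, where, and how closely the 2 replicates followed each other.

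Notch receptors sit in the membrane of one cell and are bound by Jagged and Delta-like ligands on its neighbour. Binding leads to cleavage of the receptor, and its released intracellular part enters the nucleus, joins the DNA-binding factor RBPJ and coactivators of the Mastermind family, and switches on genes such as Hes1. In the embryo the pathway is known for its part in the emergence of blood stem cells, and later for directing progenitors to the T cell lineage. m6A is a mark on mRNA, often found in the last exon and in the sequence GGAC, that reader proteins such as YTHDF2 bind.

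Of the 10 Notch genes, 6 (60%) carried an exonic peak in both replicates, namely Notch1, Notch2, Jag1, Jag2, Rbpj and Hes1. Dll4 carried one in replicate 1 only, and Notch3, Notch4 and Dll1 carried none in either. Counted in each list by itself, 7 of the 10 had a peak in replicate 1, against 34.4% of all protein-coding genes, and 6 had one in replicate 2, against 33.5%. In both replicates the share of all protein-coding genes was 30.9%. Long transcripts offer more room for a peak, and 9 of the 10 genes have a chosen transcript (that with the longest coding sequence) of 3000 nt or more. Among these 5 had a peak in both replicates, against 43.7% of all genes of that length. These shares are given side by side with no test, as the genes are few and were chosen with earlier results known.

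For most of the peaks found in both replicates, the site that lay nearest to the summit is shown here, since these sites place the signal on the transcripts. Each run is the sense strand of the spliced transcript, 5′ to 3′, on GRCm38 with GENCODE M21 models, with T for U. Capitals mark the nearest site only, as GGAC together with the base after it, which is A, C or T at each site. The A of that GGAC is the base at the middle of the run. Any other GGAC in a run is left in lower case. In the run of the last Notch2 site, the lower-case GGAC is the nearest site of replicate 2.
Notch1 coding, chr2:26460619-26460647, minus strand: caaggaagctaaGGACCtcaaggcacgga
Notch1 3′ UTR, chr2:26458659-26458687, minus strand: aaatccaactgaGGACAgacggactgtcc
Notch2 exon 25, replicate 1, chr3:98135395-98135423, plus strand: cacactgactcgGGACCtcgctgcttctg
Notch2 exon 25, replicate 2, chr3:98135688-98135716, plus strand: cctcactatggaGGACCcctgggccaact
Notch2 3′ UTR, first site, chr3:98148436-98148464, plus strand: cacctgatcttaGGACTcattgatccagc
Notch2 3′ UTR, middle site, chr3:98149454-98149482, plus strand: ggtctggtcactGGACCtaccccagacac
Notch2 3′ UTR, last site, replicate 1, chr3:98150044-98150072, plus strand: atttcaggacccGGACTttaaccagcgcg
Jag1, replicate 1, chr2:137083216-137083244, minus strand: tgtcaaaaatcaGGACAcacaactcggaa
Jag1, replicate 2, chr2:137083078-137083106, minus strand: aacacccgaactGGACAaataaacaggac
Jag2, chr12:112909155-112909183, minus strand: tgggggccacaaGGACAtactctaccagt
Rbpj, chr5:53653626-53653654, plus strand: gtctttttgctgGGACTgaaactgacttg
Hes1, replicate 1, chr16:30067471-30067499, plus strand: ctctcttctgacGGACActaaaaacgaac
Hes1, replicate 2, chr16:30067386-30067414, plus strand: ctcgctcacttcGGACTccatgtggagac
The 25 peaks fell into 12 places on the transcripts, 11 of them with a peak in both replicates. In 7 of these 11 the same site was the nearest one in both replicates, and in the other 4 (Notch2 exon 25, the last Notch2 peak, Jag1 and Hes1) the nearest site differed.

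**Figure D1:**
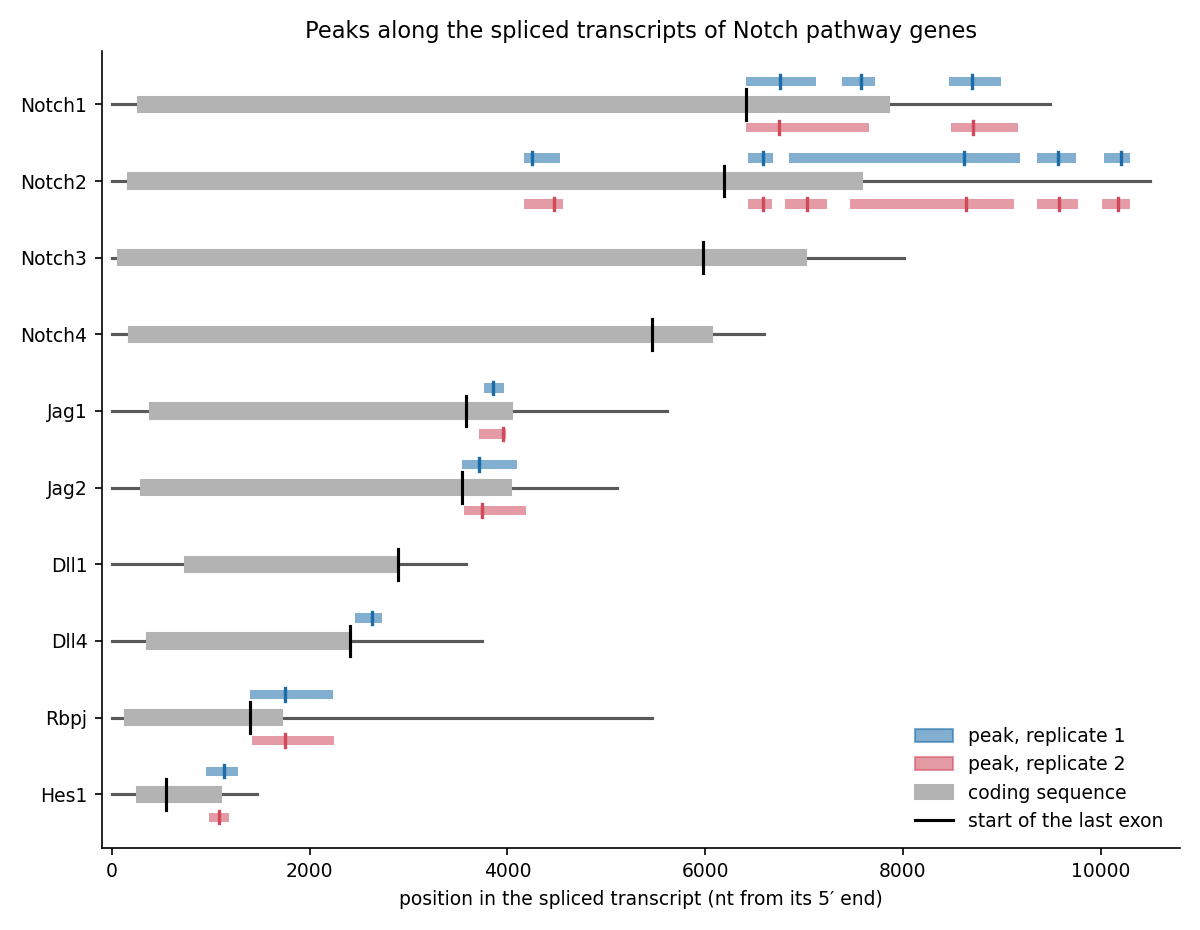
Peaks along the spliced transcript of each of the 10 Notch genes. The horizontal axis is the position in nt from the 5′ end; grey boxes are coding sequence, thin lines UTRs, black bars the start of the last exon, and coloured bars the peaks (replicate 1 above, replicate 2 below, with the summit as a darker tick). Of the 25 summits, 23 lie to the right of the black bar, in the last exon, and Notch3, Notch4 and Dll1 carry no peak.

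Among the receptors, Notch1 (ENSMUSG00000026923.15, chr2:26457903-26516663, minus strand, 34 exons) had all its peaks in its last exon of 3074 nt. This exon encodes the C-terminal end of the intracellular domain, with the transactivation and PEST regions, and the 3′ UTR. At the coding peak, replicate 1 (chr2:26460266-26461085) gave a fold enrichment of IP over the local background of 6.98 with −log10 q of 32.3, from 67 IP reads over a background of 10 control reads. Replicate 2 called 1 longer peak there (chr2:26459733-26461064), with a fold of 5.13 and −log10 q of 23.1 from 69 IP reads over 12. Its summit was in codon 2163 of 2531 and that of replicate 1 in codon 2164, and the site shown above lay 6 and 3 nt from them. Read numbers, here and below, are unscaled. In the fold, 1 control read counts as 0.873 IP reads in replicate 1 and as 1.05 in replicate 2.

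Around that summit of replicate 1 the coding sequence (chr2:26460586-26460686, minus strand) is printed to show how near the only GGAC of the window, in capitals, is to its centre.
Notch1 coding summit: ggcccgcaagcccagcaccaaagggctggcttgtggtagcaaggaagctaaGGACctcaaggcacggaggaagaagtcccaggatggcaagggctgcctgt
A weaker coding peak, closer to the stop codon, was separate only in replicate 1 (chr2:26459677-26460009, fold 3.25, −log10 q 8.36, 42 IP reads over 14), and the longer peak of replicate 2 covered most of it, its summit included. Its summit, in codon 2439, had no GGAC within 50 nt, and the nearest site was 96 nt away.

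In the 3′ UTR of Notch1, replicate 1 (chr2:26458400-26458921) had a fold of 5.80 with −log10 q of 38.5, from 96 IP reads over 18. Replicate 2 (chr2:26458226-26458902) had a fold of 9.14 with −log10 q of 52.2, from 95 IP reads over 9. The IP reads were thus alike and the backgrounds were not. Summits lay 842 and 848 nt past the stop codon (distances are counted from its first base along the spliced transcript), 18 and 12 nt from the site shown. The intervals of the fold, 4.71 to 7.07 and 7.41 to 11.2, did not overlap. They are exact Poisson 95% intervals of the IP reads with the background held fixed, so they cover counting error of the IP only, and reads copied by PCR are not independent molecules. Summits here also lay in an exon of 0610009E02Rik (ENSMUSG00000086714.1, chr2:26445696-26459390), a processed transcript on the opposite strand, and as the lists carry no strand the 3′ UTR signal cannot be given to one of the 2 genes. Without it Notch1 still had its coding peaks in both replicates.

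Notch2 (ENSMUSG00000027878.11, chr3:98013527-98150361, plus strand, 34 exons) carried most peaks, 5 in replicate 1 and 6 in replicate 2, so 11 of the 25 member peaks are from this gene. The strongest had its summits in the 3′ UTR. Replicate 1 had 1 peak of 2336 bp (chr3:98146711-98149046) with a fold of 6.33 and −log10 q of 59.0 from 138 IP reads over 24. In replicate 2 the matching peak (chr3:98147326-98148985) had a fold of 4.83 and −log10 q of 42.5 from 136 IP reads over 26. Summits were 1041 and 1053 nt past the stop codon, 33 and 45 nt downstream of the same GGAC. The peaks of both replicates also covered the stop codon. The long peak of replicate 1 also reached back over a second, coding peak of replicate 2 (chr3:98146673-98147092, fold 2.75, −log10 q 11.5, 80 IP reads over 27).

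Further down the 3′ UTR of Notch2 both replicates had a peak 1991 and 1995 nt past the stop codon and another near the end of the transcript. At the first of these, replicate 1 (chr3:98149219-98149610) had a fold of 3.72 and −log10 q of 20.6, and replicate 2 a fold of 4.46 and −log10 q of 25.5. At the last, replicate 1 (chr3:98149896-98150153) had a fold of 3.27 and −log10 q of 18 from 88 IP reads over 30, and replicate 2 a fold of 5.16 and −log10 q of 30.2 from 90 over 15.8. As in the 3′ UTR of Notch1, the IP reads nearly matched and replicate 2 had the lower background, and the intervals, 2.63 to 4.02 and 4.16 to 6.33, did not overlap.

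The coding sequence of Notch2 held weaker peaks. In the last exon, replicate 1 had a fold of 2.16 and −log10 q of 7.85, the lowest fold of all member peaks, and replicate 2 a fold of 2.75 and −log10 q of 11.5. These peaks are nearly the same interval and their summits are 1 nt apart, yet no GGAC followed by A, C or T lay inside them, and the nearest was 263 nt upstream in replicate 1 and 262 nt in replicate 2. The absence of these letters from an interval says nothing about the mark itself, which also occurs in other sequences.

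Notch2 was also the only member with a peak outside a last exon. Exon 25, of 506 nt, encodes extracellular sequence of the receptor, and its peaks had a fold of 2.64 with −log10 q of 6.78 in replicate 1 (chr3:98135270-98135693) and 4.13 with 13.3 in replicate 2 (chr3:98135237-98135718). IP reads were 50 and 51, over 21 and 11 control reads. Their summits, in codons 1364 and 1438 of 2473, were 224 nt apart, against a median of 16 nt over the 11524 one-to-one pairs of overlapping peaks in the lists. So the exon was called in both replicates, while the position within it differed.

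Notch3 and Notch4 had no exonic peak in either replicate. Their transcripts, of 8016 and 6591 nt, are long and hold 39 and 42 GGAC followed by A, C or T, against 51 in Notch1 and 54 in Notch2. In Notch3 (ENSMUSG00000038146.8, chr17:32120820-32166852, minus strand) both replicates had a peak in intron 31, with a fold of 7.12 and −log10 q of 16.3 in replicate 1 (chr17:32127645-32128048) and 6.91 with 13.3 in replicate 2 (chr17:32127660-32127999). Their summits were 3472 and 3434 nt from the nearest exon, and no annotated exon of any gene lay there. Another pair of peaks lay 1514 and 1396 nt past the end of Notch3, with folds of 5.80 and 4.61. Around Notch4 (ENSMUSG00000015468.14, chr17:34564268-34588503, plus strand) the nearest peaks past its end lay in exons of Gpsm3 and Pbx2. A peak needs both methylation and enough RNA, and the lists give no RNA level, so a gene without a peak may lack either.

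**Figure D2:**
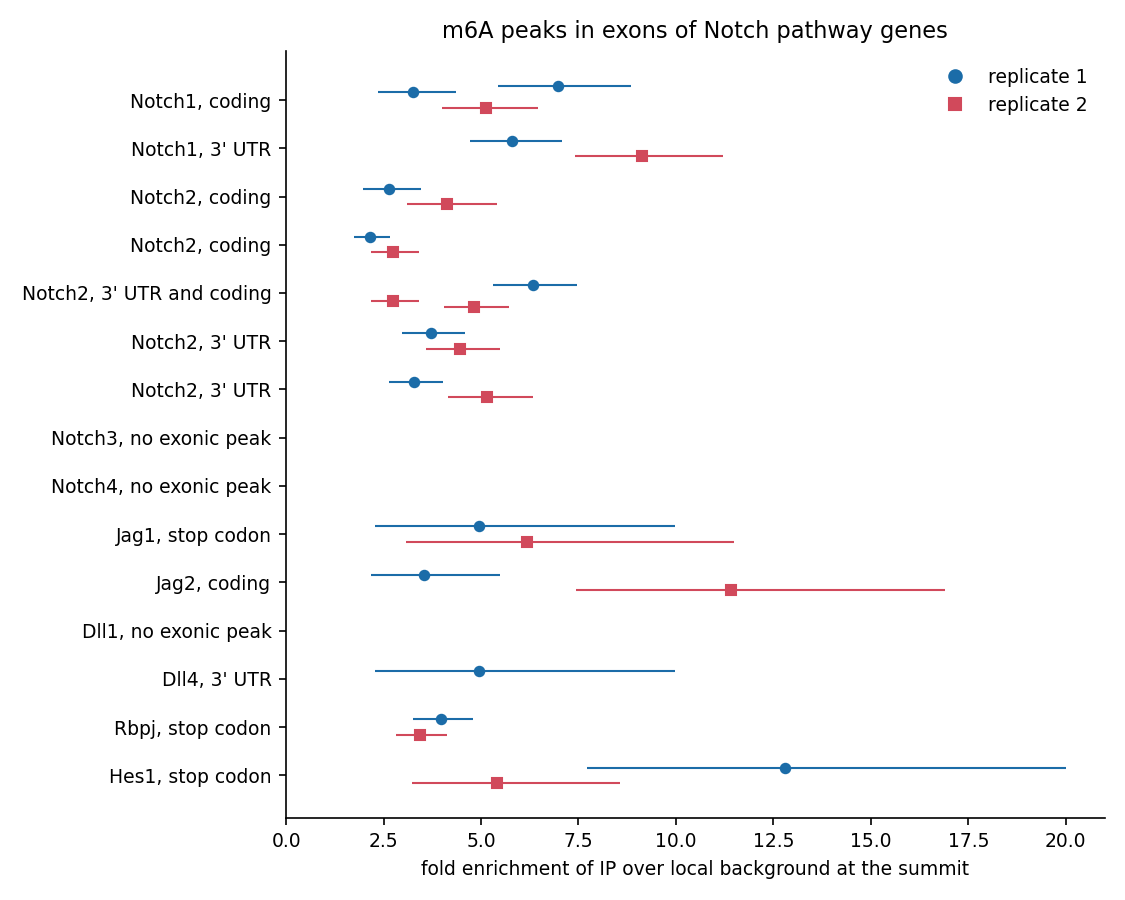
Fold enrichment of each exonic peak of the Notch genes (horizontal axis, IP over local background at the summit, linear), with replicate 1 as circles and replicate 2 as squares. Bars are exact Poisson 95% intervals of the IP reads with the background held fixed. Each row is 1 place on a transcript, named by where its summits lie; Jag2 and Hes1 are farthest apart between replicates, in opposite directions.

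Among the ligands, Jag1 and Jag2 carried a peak in both replicates, in the end of the coding sequence that encodes the intracellular tail. For Jag1 (ENSMUSG00000027276.7, chr2:137081456-137116644, minus strand) the fold was 4.96 with −log10 q of 3.96 in replicate 1 (chr2:137083099-137083303) and 6.19 with 5.32 in replicate 2 (chr2:137083078-137083359). These peaks rest on 6 and 8 IP reads, over backgrounds of 0.469 and 0.391 control reads, the lowest that occur in the respective lists. Summits were 185 and 89 nt upstream of the stop codon, in codons 1157 and 1189 of 1218, and 96 nt apart. Jag1 was thus called in both replicates from very few reads, at places in the exon that differed by more than the usual distance between summits.

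Jag2 (ENSMUSG00000002799.6, chr12:112907819-112929776, minus strand) had a fold of 3.54 with −log10 q of 4.10 in replicate 1 (chr12:112908824-112909381), from 18 IP reads over 5. In replicate 2 (chr12:112908740-112909360) the fold was 11.4 with −log10 q of 18.2, from 23 IP reads over 1. Position agreed within 35 nt, at codons 1140 and 1152 of 1247, with the same GGAC 45 and 10 nt downstream. The size of the enrichment did not. The log2 difference of 1.69 is 3.62 times the SD over all pairs, which is 0.47, and 0.321% of pairs were as far apart. Among pairs with at most 40 IP reads in either replicate the SD was larger, 0.59. The intervals of the fold, 2.17 to 5.49 and 7.44 to 16.9, did not overlap with the background held fixed, and it was the background, 5 against 1 control reads, that differed most.
The window around the summit of replicate 2 (chr12:112909129-112909229, minus strand) shows the single GGAC, in capitals, that both replicates pointed to.
Jag2 coding summit: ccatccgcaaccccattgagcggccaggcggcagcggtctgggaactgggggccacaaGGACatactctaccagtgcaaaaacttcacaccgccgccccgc

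Neither Delta-like ligand was called in both replicates. Dll4 (ENSMUSG00000027314.6, chr2:119325784-119335962, plus strand) had a peak in replicate 1 only (chr2:119334671-119334942), 215 nt past the stop codon, with a fold of 4.96 and −log10 q of 3.96 from 6 IP reads over 0.469. These are exactly the values of Jag1 in the same replicate, because both rest on the same number of IP reads over the same lowest background. No GGAC lay within 50 nt of its summit. Dll1 (ENSMUSG00000014773.13, chr17:15367354-15376872, minus strand) had none. The fewest IP reads of any peak were 4 in replicate 1 and 6 in replicate 2, and for Dll4 in replicate 2 the lists do not tell an absent signal from one just below the threshold.

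**Figure D3:**
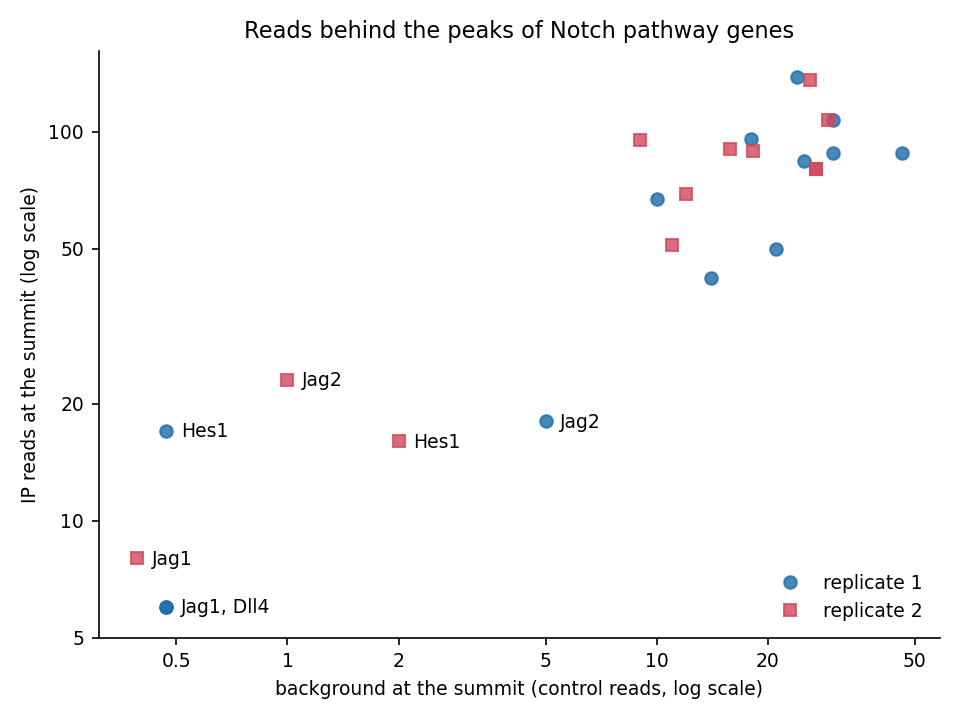
IP reads at the summit (vertical axis) against the background in control reads (horizontal axis), both on log scales, for the 25 peaks; circles are replicate 1 and squares replicate 2, and Jag1 and Dll4 coincide in replicate 1. The peaks of Notch1, Notch2 and Rbpj have 42 to 138 IP reads, and those of Jag1, Jag2, Dll4 and Hes1 have 6 to 23. Reads are unscaled, and in the fold a control read counts as 0.873 IP reads in replicate 1 and 1.05 in replicate 2.

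In the nucleus, Rbpj (ENSMUSG00000039191.12, chr5:53466152-53657362, plus strand), which turns the receptor signal into transcription, was the member on which the replicates were most alike. Replicate 1 (chr5:53653281-53654134) had a fold of 3.97 and −log10 q of 28.5, and replicate 2 (chr5:53653317-53654148) a fold of 3.43 and −log10 q of 21.8. Each had 107 IP reads, over 30 and 29 control reads. A control read counts as 0.873 IP reads in replicate 1 and 1.05 in replicate 2, so the fold was lower in replicate 2. Both summits fell on the same base, 41 nt past the stop codon and 19 nt downstream of the GGAC shown. The last exon of 4058 nt makes up most of the 5459 nt transcript, but the peak lay at its 5′ side and not in the long remainder of the 3′ UTR. Its processed copies Rbpj-ps1 and Rbpj-ps3 and its paralog Rbpjl, which could share reads with it, carried no peak.

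Hes1 (ENSMUSG00000022528.8, chr16:30064384-30067796, plus strand), a repressor that is an immediate target of the pathway, had its peak at the stop codon. In replicate 1 (chr16:30067280-30067604) the fold was 12.8 with −log10 q of 19.6 from 17 IP reads over 0.469, the highest fold of all member peaks. In replicate 2 (chr16:30067311-30067511) it was 5.41 with −log10 q of 6.56 from 16 IP reads over 2. Again the IP reads were nearly equal, and here replicate 1 had the lower background. The log2 difference was −1.24 (replicate 2 over replicate 1), 2.65 times the SD over pairs, with 1.95% of pairs as far apart, and the intervals, 7.73 to 20 and 3.23 to 8.57, overlapped. Summits were 41 nt past and 10 nt before the stop codon, each within 20 nt of a site but not of the same one.

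Across the members, the pairs were compared with the spread between replicates over all 11524 pairs, of which 95.2% were within 2-fold. Of the 9 one-to-one pairs in Notch genes, 7 were within that range, with log2 differences from −0.21 in Rbpj to 0.66 in Notch1 and at the last Notch2 peak, and the exceptions were Jag2 and Hes1. Both exceptions had at least 1 background under 2 control reads, as did 5 of the 25 member peaks in all. The 2 member peaks with a fold of 10 or more were among these 5.

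**Figure D4:**
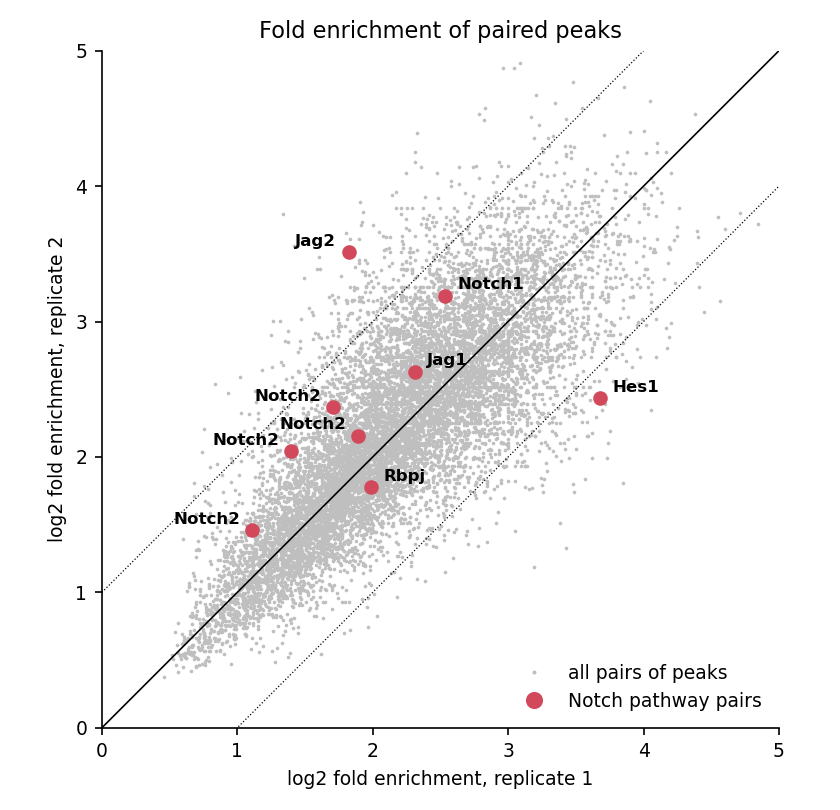
Log2 fold enrichment of replicate 2 (vertical) against replicate 1 (horizontal) for all 11524 one-to-one pairs of overlapping peaks (grey) and the 9 pairs in Notch genes (red, named). The solid line marks equal values and the dotted lines a 2-fold difference; Jag2 lies above the upper dotted line and Hes1 below the lower one. At the coding peaks of Notch1 and at the long peak of Notch2, 1 peak of a list overlaps 2 peaks of the other. None of these peaks is drawn, and this includes the second, coding peak of Notch2 in replicate 2.

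In the median, the member peaks resembled other exonic peaks in strength. Their median fold was 3.97 in replicate 1 and 4.98 in replicate 2, against 4.18 and 4.39 over all exonic peaks, and their median IP reads were 67 and 80 against 68 and 66. These medians lean on Notch1 and Notch2, with 16 of the 25 peaks. For peaks of Notch1, Notch2 and Rbpj, 30.4% to 90.4% of exonic peaks of the same replicate had fewer IP reads. For those of Jag1, Jag2, Dll4 and Hes1 it was 0.126% to 13.3%. The lowest and highest member folds were 2.16 and 12.8 in replicate 1, and 2.75 and 11.4 in replicate 2. All 12 member peaks of replicate 2 and 12 of the 13 of replicate 1 overlapped a peak of the other list by at least 1 bp, against 86.8% and 84.2% of all exonic peaks.

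The members shared their position in the last exon. Of their 25 summits, 23 (92%) lay in a last exon, and the other 2 were those in exon 25 of Notch2. Over all summits that could be placed on 1 chosen transcript, 61.3% lay in a last exon. Summits in exons of more than 1 gene are left out of that set. The member counts, here and below, keep the Notch1 3′ UTR summits that 0610009E02Rik shares. The last exons of the 10 genes hold 35.5% of their exonic sequence (21147 of 59568 nt) and 31.4% of the GGAC followed by A, C or T (89 of 283). By gene these shares differ, and the last exon holds 4058 of 5459 nt in Rbpj and 925 of 1468 nt in Hes1, against 3074 of 9488 nt in Notch1 and 4309 of 10500 nt in Notch2. Peaks of 1 gene, and the 2 replicates of 1 place, are not independent, and 16 of the 25 are from Notch1 and Notch2.

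Within the last exon, the members differed in where the peak lay. Of the 25 summits, 6 (24%, exact Clopper-Pearson 95% interval 9.36 to 45.1, for counting error only) were within 200 nt of the stop codon, namely those of Jag1, Rbpj and Hes1. The share over all placed summits, 30.3%, lies inside this interval, and with a window of 400 nt the member share was 40%. Coding summits, in Notch1, Notch2 and Jag2, made up 40% of member summits (interval 21.1 to 61.3), against 33.9% of all. They include those of Notch2 outside the last exon. Summits in the 3′ UTR, in Notch1, Notch2 and Dll4, made up 36% (interval 18 to 57.5), against 17.3% of all. Most of these 3′ UTR summits were from Notch2, and summits of 1 gene are not independent. None was within 200 nt of a start codon or in a 5′ UTR, where 15% and 3.5% of all placed summits were found. GGAC on the sense strand lay within 50 nt of the summit for 19 of the 25 (76%, interval 54.9 to 90.6). Over all placed summits, in windows of the same 101 nt, the share was 56.8%, inside this interval. By place, 10 of the 12 had GGAC near a summit of at least 1 replicate, and the exceptions were the Notch2 coding peak described above and Dll4.

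The rest of the pathway was covered by a list of 56 other genes, of which 35 (62.5%) had an exonic peak in both replicates, 5 in 1 replicate and 16 in none. Over all protein-coding genes the share in both replicates was 30.9%, and 43.7% over those with a transcript of 3000 nt or more. With a minimum fold of 4 the count in both replicates was 17 of 56, against 16.9% of all protein-coding genes. This list too was chosen with earlier results known, and no test was made of these counts, nor of those by role that follow. A peak in at least 1 replicate was found for 37.1% of all protein-coding genes. Each of the 8 genes of receptor cleavage had a peak in at least 1 replicate, with 6 in both (Furin, Adam10, Adam17, Psen2, Ncstn and Aph1b) and Aph1a and Psenen called in replicate 1 only. The highest −log10 q among them was that of Furin, the protease that cuts the receptor on its way to the membrane, with a fold of 5.34 in replicate 1 and 7.87 in replicate 2 (−log10 q 29.5 and 39.8; values of the other leading genes follow in the same order). Of the 5 genes that glycosylate the receptors, 4 were called (Pofut1, Poglut1, Mfng and Rfng, with Lfng the exception), led by Pofut1, the enzyme that adds O-fucose to EGF repeats, at 6.83 and 6.26 (65.1 and 49.4). Of the other ligands only Dlk1, a non-canonical one, was called, at 8.16 and 8.42 (10.1 and 10.4) from 12 and 14 IP reads, and Dll3 and Dlk2 had no peak.

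Downstream in the nucleus, 7 of 8 coactivators were called in both replicates (Maml1, Maml2, Maml3, Snw1, Ep300, Crebbp and Kat2a), all but Kat2b. Maml1, which binds the complex of receptor and RBPJ, had 5 peaks in each replicate, the strongest at 7.63 and 7.78 (50.6 and 47.2) in its coding sequence. Of 9 corepressors, 7 were called (Spen, Ncor1, Ctbp2, Sin3a, Kdm5a, Tle1 and Tle3), Ctbp1 in replicate 1 only and Hdac1 in neither. Spen, a large corepressor that binds RBPJ, had 12 and 13 peaks, the strongest at 7.58 and 6.66 (68.8 and 52.6).

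Of the 13 genes of endocytosis and turnover, 5 had a peak in both replicates (Dtx2, Dtx3, Dtx4, Fbxw7 and Nrarp), Numbl and Itch had one in 1 replicate, and Mib1, Mib2, Neurl1a, Neurl1b, Numb and Dtx1 had none. Fbxw7, the ubiquitin ligase subunit that binds the PEST region of the receptor, stood highest at 5.58 and 5.77 (39.3 and 38.5). Of 12 further genes listed as targets, 6 were called (Hes6, Nrarp, Myc, Ccnd1, Gata3 and Cdkn1a), and Hes5, Hey1, Hey2, Heyl, Dtx1 and Il2ra had no peak. Whether the pathway controls each of the 12 genes in these cells was not tested. Hes6, a relative of Hes1, stood highest among them at 7.38 and 10.1 (26.7 and 38.9), with the peak of these values near its start codon. Each replicate had 2 Hes6 peaks, and the place of the other is not given here. Summits of Nrarp also lay in an exon of Gm38287, and those of Snw1 in one of Slirp.

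**Figure D5:**
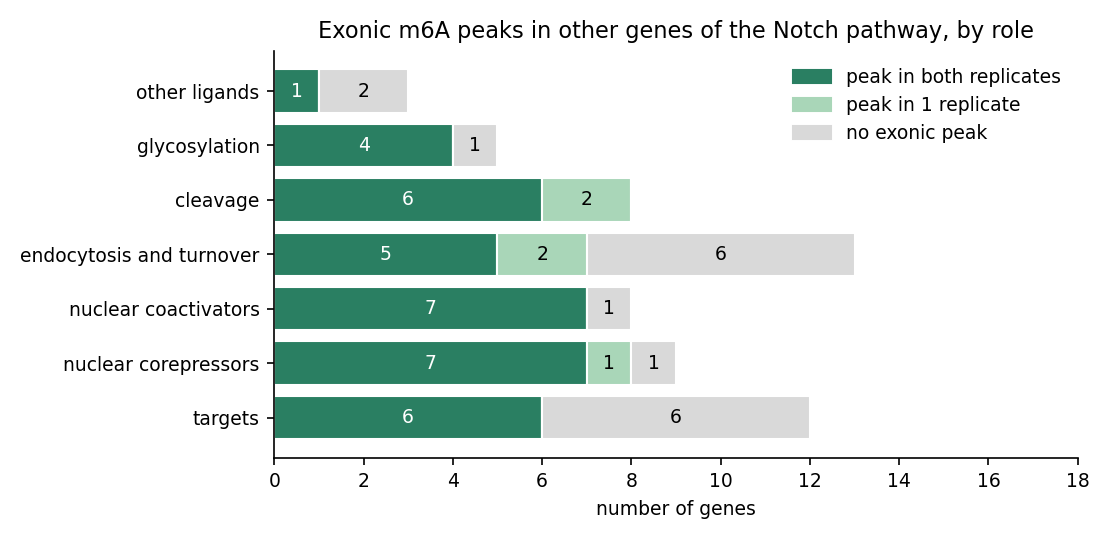
Number of genes (horizontal axis) with an exonic peak in both replicates, in 1 replicate or in none, for the 56 other genes of the Notch pathway by role; Dtx1 and Nrarp stand under 2 roles. Of 5 glycosylation, 8 cleavage, 8 coactivator and 9 corepressor genes, at most 1 each has no peak in either replicate. Of 12 genes listed as targets, 13 genes of endocytosis and turnover and 3 other ligands, 6, 6 and 2 have none. Shares with a peak in both replicates are 80%, 75%, 87.5%, 77.8%, 50%, 38.5% and 33.3% in that order. Over all protein-coding genes this share was 30.9%, and 37.1% had a peak in at least 1 replicate. Differences between roles were not tested.

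Markers of the cells were read in the same way, with the limit that a peak needs methylation as well as RNA. Of 10 stem and progenitor markers 6 had a peak in both replicates, and Kit itself had none, as had Myb, Mecom and Flt3. Peaks in both replicates were also found for 2 of 5 erythroid markers, 3 of 5 myeloid markers (among them Csf1r, whose summits an exon of Hmgxb3 also covers), 2 of 5 hepatocyte markers (Apoa1 and Hnf4a, with Afp in replicate 1 only and Alb and Ttr at none), 1 of 4 endothelial markers (Kdr) and 1 of 3 stromal markers (Pdgfrb). Over all protein-coding genes this share was 30.9%. Most classes lay above it, the stem and progenitor and the myeloid markers farthest. The classes hold 3 to 10 genes each and no test was made, so the counts do not tell the classes apart. Jagged and Delta-like ligands are also made by endothelial and stromal cells, and the part of such cells in the peaks of Jag1, Jag2 and Dll4 was not tested.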

How the data were processed

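Peaks were those of the authors, who aligned reads of 2 biological replicates to GRCm38 (mm10 in the labels) with HISAT2 and called peaks in each replicate with MACS2 (version 2.1.1.20160309, nomodel option). The threshold, genome size and control library are not given in the sources used here. The smallest −log10 q in the lists was 1.31 and 1.30. The deposited fold enrichment is a ratio of IP to local background at the summit, with 1 added to each term after scaling. By the recovered values, control reads were scaled by 0.873 in replicate 1 and IP reads by 0.952 in replicate 2. The deposited −log10 p-value and −log10 q-value are those of MACS2 at that base, and the score that the authors deposited is derived from −log10 q.

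Exons came from the GENCODE M21 basic set on the same build, and a gene was called when a summit lay in an exon in both replicates. Positions are on the transcript of longest coding sequence, for 10830 and 10465 summits that lay in 1 gene. Whole IP reads were recovered from the deposited fold and p-value together, which matched for 100% of peaks in each list (tolerance 0.001 in −log10 p), and the procedure was tested on simulated data. Library totals are not known from these lists. Peaks sharing 1 bp were called shared. GGAC was searched on the sense strand only, within 50 nt of the summit. Python 3.11.15, numpy 2.4.6, scipy 1.17.1 and matplotlib 3.10.9 were used.

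The members and gene lists were chosen with earlier results of these data known. All members are named, and in each role of the further list values are given for the gene with the highest −log10 q among peaks found in both replicates. Some genes and 1 sequence are not reported here, and the counts are over the genes that are. No test between groups was possible, and input samples, without values here, entered no comparison. Alternatives were other exon sets, stricter peaks, other overlaps and windows, and each replicate alone.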

Additional observations from a re-analysis of the deposited data

How the results depend on the processing

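The count of 6 Notch genes with an exonic peak in both replicates was 6 when any overlap with an exon sufficed, with the comprehensive transcript set, with a minimum −log10 q of 3 and when summits in exons of other genes were left out. It fell to 4 with a minimum −log10 q of 5 (Jag1 and Jag2 lost) and to 4 with a minimum fold of 4 (Jag2 and Rbpj lost), and was 6 to 7 with a replicate left out and 7 with a peak in either replicate, a setting chosen after seeing the data. The share of all protein-coding genes moved to 32.6% with any overlap, 31.6% with the comprehensive set, 30.2% and 28.9% with a minimum −log10 q of 3 and 5, 16.9% with a minimum fold of 4, 29.1% without summits in other genes, 33.5% to 34.4% without a replicate and 37.1% for either replicate. The further list gave 17 genes with a minimum fold of 4, and 33 to 40 under the other settings. Shared member peaks, 96%, became 88% with 50% reciprocal overlap, 80% with summits within 100 bp and 66.7% with a minimum fold of 4. GGAC was found for 56% of member summits within 25 nt and 88% within 100 nt, and the stop codon share was 20% within 100 nt and 40% within 400 nt. The median fold, 4.83 over both lists, was 3.97 to 4.98 in a single replicate. The cause of these changes beyond the settings themselves was not tested. The peaks of Jag1, Dll4, Jag2 and Hes1 rest on at most 23 IP reads each, and whether this comes from depth, RNA level or methylation was not tested. No paired analysis was possible because the input samples have no values here and no test between groups was made.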
